A study of Mus musculus with 2 samples.

Results

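Neurotrophins, their Trk receptors and the receptors p75 and sortilin were followed at the level of single transcripts in mouse hippocampus. The 6 genes Bdnf, Ntf3, Ntrk2, Ntrk3, Ngfr and Sort1 were taken by exact match of the symbol in the transcript tables, out of 55450 genes named there, and all 6 were found with 48 annotated transcripts in all. The series holds 2 libraries of 1 group, replicates 1 and 2. Both were total RNA libraries, stranded and depleted of ribosomal RNA, from female mice of strain B6CASTF1/J, a first-generation cross of C57BL/6 and CAST mice, aged 25 days. The tissue is labelled as a layer of the hippocampus, 300 ng of RNA entered each library and ERCC control RNAs were added. The labels give the replicates separate biosamples but the same donor entry, so they may not be separate animals, and every SD here covers only the spread between these 2 libraries. There was no treated or control group, so no condition was compared and no test was made.

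Neurotrophins are small secreted proteins that are made as precursors and cut to mature growth factors. Mature Bdnf activates the receptor tyrosine kinase TrkB, encoded by Ntrk2, and Ntf3 activates mainly TrkC, encoded by Ntrk3. Both kinase genes also make truncated receptors that bind the ligand but lack the kinase, and precursor forms bind p75 (Ngfr) together with sortilin (Sort1). In the hippocampus, Bdnf is known for its release at excitatory synapses and its part in plasticity, and its gene has a row of separate promoters, each with its own first exon.

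The receptor forms part ways at a single splice junction, and the bases on either side of it are what distinguishes them. In the Ntrk2 sequences that follow, capitals mark the coding bases after the split from the 1393 coding bases that the forms share, and the last 30 shared bases are in lower case. Ntrk2-201 codes for the full-length receptor of 821 codons, Ntrk2-202 for the short form known as TrkB.T1, of 476 codons, and Ntrk2-205 for another truncated form, of 492 codons. The capitals lie at chr13:58985802-58985839 for Ntrk2-201 (its first 38 specific bases), chr13:58932023-58932060 for Ntrk2-202 and chr13:58878339-58878424 for Ntrk2-205, all in coding exons on the plus strand of mm10. The last 2 run to the stop codon.
Ntrk2-201: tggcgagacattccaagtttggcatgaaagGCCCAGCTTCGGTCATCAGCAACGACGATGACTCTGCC
Ntrk2-202: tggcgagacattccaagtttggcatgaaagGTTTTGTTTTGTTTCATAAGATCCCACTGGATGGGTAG
Ntrk2-205: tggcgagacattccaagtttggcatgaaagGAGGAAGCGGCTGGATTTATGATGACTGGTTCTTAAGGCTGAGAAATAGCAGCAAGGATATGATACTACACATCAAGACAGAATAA

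Ntrk3 forms share 1585 coding bases. The capitals again mark the first 38 coding bases after the split, at chr7:78260377-78260414 in full-length Ntrk3-201 and at chr7:78304389-78304426 in truncated Ntrk3-202, both on the minus strand.
Ntrk3-201: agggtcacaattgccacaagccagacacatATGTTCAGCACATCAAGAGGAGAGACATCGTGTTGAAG
Ntrk3-202: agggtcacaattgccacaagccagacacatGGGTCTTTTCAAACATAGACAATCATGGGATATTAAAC

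Full-length Ntrk3 itself comes in 3 annotated forms, because extra exons can be spliced into the part that codes for the kinase. Ntrk3-205 carries an insert of 42 bases, or 14 codons (chr7:78204103-78204144), and Ntrk3-206 carries that insert and, just before it, another of 75 bases, or 25 codons (chr7:78229487-78229561). The inserts are in capitals with 15 flanking bases on each side.
Ntrk3-205 insert: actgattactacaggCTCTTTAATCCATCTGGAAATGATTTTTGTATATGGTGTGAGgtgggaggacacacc
Ntrk3-206 first insert: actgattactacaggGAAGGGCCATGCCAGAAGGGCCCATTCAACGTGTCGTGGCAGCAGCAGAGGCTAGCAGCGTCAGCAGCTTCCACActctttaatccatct

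Sort1 has a comparable choice. The coding transcript Sort1-203 differs in its coding sequence from Sort1-201 by an added exon of 99 bases, or 33 codons, at chr3:108355472-108355570 on the plus strand, shown in capitals.
Sort1-203 insert: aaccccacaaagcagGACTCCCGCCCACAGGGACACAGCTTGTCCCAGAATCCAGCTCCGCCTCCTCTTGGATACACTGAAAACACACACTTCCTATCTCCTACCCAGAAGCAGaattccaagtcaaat

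Bdnf transcripts differ in their first exons instead, so the sequence that sets them apart is upstream of each start. The 150 bases before the annotated starts of first exons I and IV are given, at chr2:109674550-109674699 and chr2:109692286-109692435 on the plus strand of mm10, from RefSeq (GRCm38.p6). The 7 Bdnf windows searched lie before first exons I, III, IV, V, VII and VIII and before 1 RefSeq start that begins no annotated transcript; first exons II and VI were not searched. The 2 windows shown are those of the 7 in which a searched element was found, and capitals mark it. The elements searched on both strands over 250 bases before each start were TGACGTCA, the palindromic cyclic AMP response element, its variants TCACGTCA and TCACGTAA, and the E-box CACGTG.
Bdnf first exon I: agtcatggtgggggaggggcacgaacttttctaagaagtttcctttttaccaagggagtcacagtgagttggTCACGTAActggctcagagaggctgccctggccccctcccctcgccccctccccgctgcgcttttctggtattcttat
Bdnf first exon IV: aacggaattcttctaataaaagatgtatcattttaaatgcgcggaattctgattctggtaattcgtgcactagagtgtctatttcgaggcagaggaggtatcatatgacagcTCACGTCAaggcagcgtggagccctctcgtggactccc
TCACGTAA stood 78 bases before the start of exon I and TCACGTCA 38 bases before that of exon IV, each in 1 of 7 Bdnf windows. Over 32851 RefSeq promoters of the same length, 0.146% held TCACGTAA and 0.350% held TCACGTCA. TGACGTCA, found in 1.55% of all promoters, and CACGTG, found in 6.02%, were in 0 of the 7 Bdnf windows, which leave out exons II and VI. The elements were chosen by hand, so the shares over all promoters are background and measure no enrichment at Bdnf. These matches describe letters in the windows and not binding.

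Sort1 and Ntrk2 were the most abundant of the 6 mRNAs, Ntrk3 followed, and the ligands and Ngfr were much lower. Levels are in TPM, a share of all transcripts that corrects for transcript length, as the authors deposited them in RSEM-format tables. Sort1 (ENSMUSG00000068747.14, chr3:108284082-108361511, plus strand), a sorting receptor for neurotrophin precursors, was at 150.53 and 143.82 TPM in replicates 1 and 2, or 147 ± 4.74 (SD, n = 2). Ntrk2 (ENSMUSG00000055254.15, chr13:58806569-59133970, plus strand) was at 136.59 and 129.43 TPM, or 133 ± 5.06 (SD, n = 2). The libraries of these genes did not overlap, but the lowest Sort1 value, 143.82, was close to the highest of Ntrk2, 136.59, and the means differed by only 1.11-fold.

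Ntrk3 (ENSMUSG00000059146.12, chr7:78175959-78738012, minus strand), the receptor of Ntf3, was at 88.96 and 69.32 TPM, or 79.1 ± 13.9 (SD, n = 2), with replicate 2 the lower. Bdnf (ENSMUSG00000048482.14, chr2:109674700-109727007, plus strand) was at 13.03 and 11.83 TPM, or 12.4 ± 0.849 (SD, n = 2). Ntf3 (ENSMUSG00000049107.13, chr6:126101412-126166910, minus strand) was at 4.98 and 5.70 TPM, or 5.34 ± 0.509 (SD, n = 2). Both ligand mRNAs were thus under both kinase receptor mRNAs in each library, and the smallest of these gaps, from Ntrk3 to Bdnf, was 6.83-fold and 5.86-fold. Ngfr (ENSMUSG00000000120.6, chr11:95568818-95587735, minus strand), which encodes p75, was at 0.35 and 0.55 TPM, or 0.450 ± 0.141 (SD, n = 2). Ngfr rested on 28 and 55 expected counts, whereas Sort1 had 24144 and 28853, Ntrk2 19843 and 23042, and Ntrk3 14385 and 14100. Bdnf had 1223 and 1393 counts and Ntf3 149 and 213.

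In the order Sort1, Ntrk2, Ntrk3, Bdnf, Ntf3 and Ngfr, no neighbours overlapped between libraries. Against the 17375 nuclear protein-coding genes with a level above 0, Sort1 ranked 468 and Ntrk2 538. Ntrk3 ranked 1136, Bdnf 7053, Ntf3 9882 and Ngfr 13872, so that Ngfr was above only 20.1% of these genes. Levels in bulk tissue cannot tell apart fewer cells of a type and less RNA per cell. All 6 of 6 markers of hippocampal fields were at 1 TPM or more in both libraries, with a median of 45.6 TPM, and so were 4 of 4 markers of thalamus and striatum, with a median of 4.09 TPM. Of cholinergic neurons, a cell type known for high Ngfr, the 3 markers summed to 0.290 and 0.430 TPM, with Chat at 0 in replicate 1. Astrocyte markers, from cells known to carry truncated TrkB, summed to 1330 and 1240 TPM over 6 genes, with a median of 125 TPM. The part of cell content in the Ngfr and Ntrk2 levels was not tested.

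**Figure D1:**
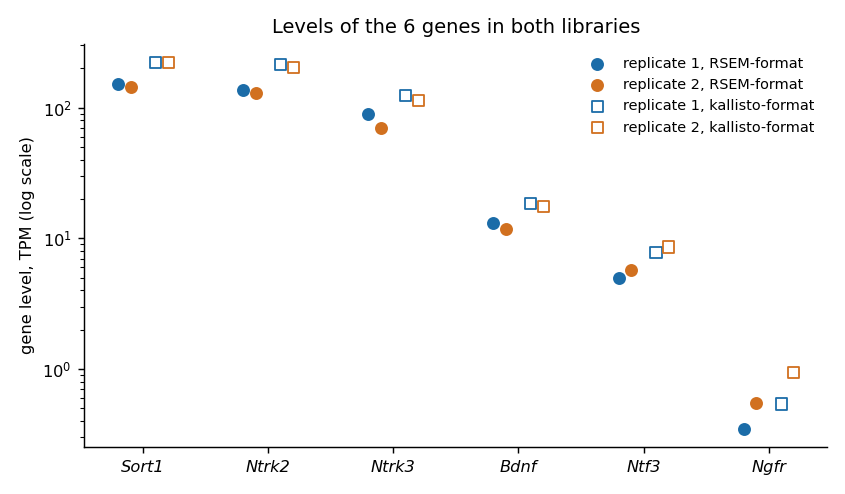
Level of each gene in TPM on a log scale, with one point for each library; filled circles are the RSEM-format tables and open squares the kallisto-format tables, and no error bars are drawn. Sort1 and Ntrk2 lie highest, Ngfr lies below 1 TPM, and the order of the 6 genes is the same in both quantifications.

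A second set of tables, of kallisto format, gave higher values for every one of the 6 genes and the same order. The means there were 221 TPM for Sort1, 208 for Ntrk2, 119 for Ntrk3, 18.1 for Bdnf, 8.18 for Ntf3 and 0.740 for Ngfr. A TPM is a share of all the RNA a table lists, and the RSEM-format tables also list transfer RNA genes, with nuclear protein-coding genes holding 43.4% and 41.98% of TPM there. Levels were therefore compared within a table and shares of a gene across tables.

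Of the 48 transcripts, 12 had no expected count in either library and 22 held at least 5% of their gene's TPM in at least 1 of the quantifications. The leading transcript was the same in both quantifications for 5 of 6 genes, Ntf3 being the exception.

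Bdnf RNA was spread over several promoters, with first exon VI in the lead and IV next. The annotation does not number the first exons; taken in order along the gene, the 11 transcripts form 8 groups that follow the usual exons I to VIII. All 11 transcripts end in the same last exon of 3626 bases (chr2:109723382-109727007), which holds most of the coding sequence, and 10 of them have just 1 other exon, so that they differ only in first exons of 81 to 640 bases. Bdnf-204, in group VII, has 3 exons, with a short middle exon within the first exon of group VIII, and had no expected count in either library. First exon VI (Bdnf-205) was at 6.29 and 5.35 TPM in replicates 1 and 2 and rested on 586 and 623 expected counts. First exon IV (Bdnf-209), the promoter best known for its response to neuronal activity, was at 3.14 and 3.17 TPM. It held 25.5 ± 1.93% of Bdnf TPM (SD, n = 2). Replicates were close for both of these.

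First exon II, with 3 transcripts that differ in the splice donor, was at 2.27 and 1.44 TPM, or 14.8 ± 3.71% (SD, n = 2). First exon I (Bdnf-201), which codes for 257 codons where most forms have 249, was at 0.76 and 1.49 TPM, or 9.23 ± 4.79% (SD, n = 2). These 2 exons went in opposite directions between the libraries, exon I higher and exon II lower in replicate 2, and their shares overlapped: 5.84% and 12.6% for I against 17.4% and 12.2% for II. The deposited credibility interval of Bdnf-201 was 0.357 to 1.16 TPM in replicate 1 and 0.934 to 1.99 in replicate 2, so the libraries' intervals overlapped too. Within exon II, Bdnf-210 held 8.97 ± 0.354% and Bdnf-207 5.37 ± 2.64% (SD, n = 2). Exon VII held 2.07 ± 0.427% and exon VIII, the only one far downstream of the others, 1.61 ± 1.31% (SD, n = 2). First exons III and V, the latter of only 81 bases, were listed at 0 in both libraries and both quantifications. The deposited upper bounds still allow 0.329 and 0.291 TPM for exon III (Bdnf-206) and 0.362 and 0.258 TPM for exon V (Bdnf-211), wider than the 3 counts that counting error alone allows for a count of 0.

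The lead of exon VI held in the second quantification, but the place of exon IV did not. There exon VI had 59.97% and 51.9% of Bdnf TPM, and exon II 23.2% and 19.1%. Exon IV had only 4.91% and 13.9%, below its 24.1% and 26.8% in the RSEM-format tables, and on the means came behind exon II and also behind exon I, at 12.3%. The share of exon IV therefore rests on the quantification used.

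**Figure D2:**
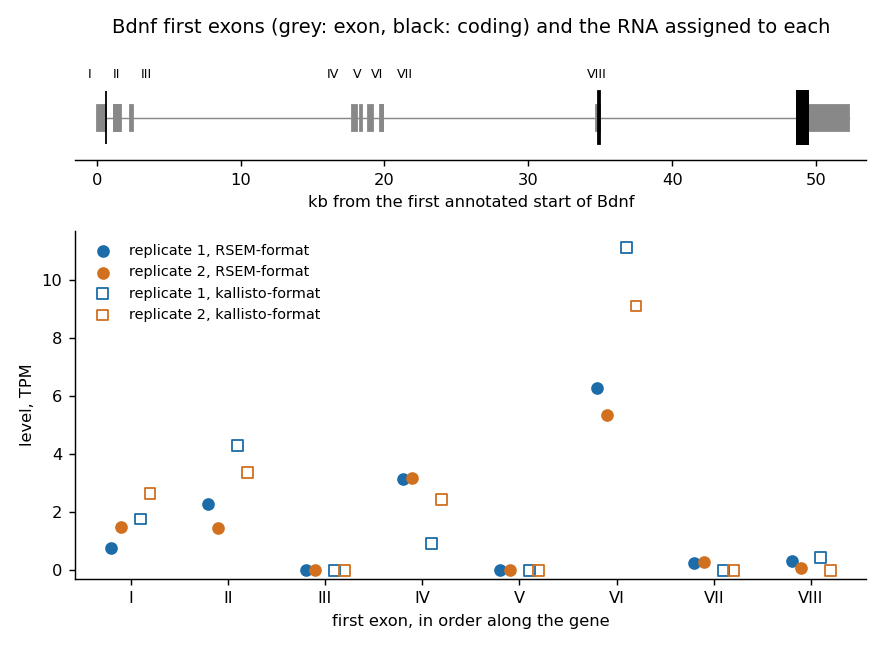
Top, the Bdnf gene drawn to scale in kb from its first annotated start, with exons in grey and coding parts in black. Bottom, TPM of each first-exon group in each library and quantification, without error bars; exon VI is highest in all 4 sets of values, while exon IV is lower in the kallisto-format tables.

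Ntf3 was read through 1 transcript in the RSEM-format tables and through another in the second. All of its 149 and 213 expected counts went to Ntf3-203, whose first exon of 231 bases joins the shared coding exon of 1112 bases. The second quantification gave Ntf3-203 12.1% and 7.45% of the gene and Ntf3-202 70.8% and 84.6%. Ntf3-202 starts upstream with an exon of 176 bases and takes 111 bases from within the first exon of Ntf3-203. Ntf3-201, with a first exon of 371 bases, had 17.1% and 7.92% there. The transcripts differ only in these short 5′ exons and in the coding start, and the start site in use was not resolved by these tables.

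Ntrk2 RNA was mostly of truncated, kinase-less forms on the TPM scale. Full-length Ntrk2 (Ntrk2-201 and Ntrk2-207, both of 821 codons) was at 57.89 and 52.69 TPM in replicates 1 and 2. The 5 truncated coding transcripts together were at 76.85 and 75.86 TPM, so truncated RNA was 1.33 and 1.44 times full-length RNA. Full-length transcripts held 41.98 ± 1.397% of coding Ntrk2 TPM (SD, n = 2). The same share was 45.3% and 45.1% in the second quantification, again below that of the truncated forms. By expected counts, which are not divided by length, it was 51.6% and 51.3%, so the direction turned: Ntrk2-201 is 8744 bases long and Ntrk2-202 6846. Ntrk2-202 alone was below full-length RNA in both libraries and both quantifications. The truncated lead on TPM came only together with the other truncated forms, chiefly Ntrk2-204 (3049 bases) and Ntrk2-205 (2284 bases). That lead therefore rests on the annotated ends.

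The TrkB.T1 stop, shown above in Ntrk2-202, is also used by Ntrk2-204, and the 2 together were at 60.65 and 59.50 TPM, or 45.6 ± 0.900% of coding TPM (SD, n = 2). Ntrk2-202 alone was at 47.89 and 42.45 TPM, and Ntrk2-204, of 3049 bases, at 12.76 and 17.05. The sum was steadier than its parts: Ntrk2-202 was lower and Ntrk2-204 higher in replicate 2. Full-length Ntrk2-201 was at 39.01 and 37.09 TPM and Ntrk2-207, with the same coding sequence and other ends, at 18.88 and 15.60. The third stop, that of Ntrk2-205, was at 13.57 and 15.53 TPM, or 11.1 ± 1.42% (SD, n = 2), but at 3.84% and 4.15% in the second quantification. The 2 other truncated stops, of Ntrk2-208 (466 codons) and Ntrk2-209 (489 codons), held 0.647% and 0.652% on average. The 3 transcripts outside both classes held 1.02% of Ntrk2.

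**Figure D3:**
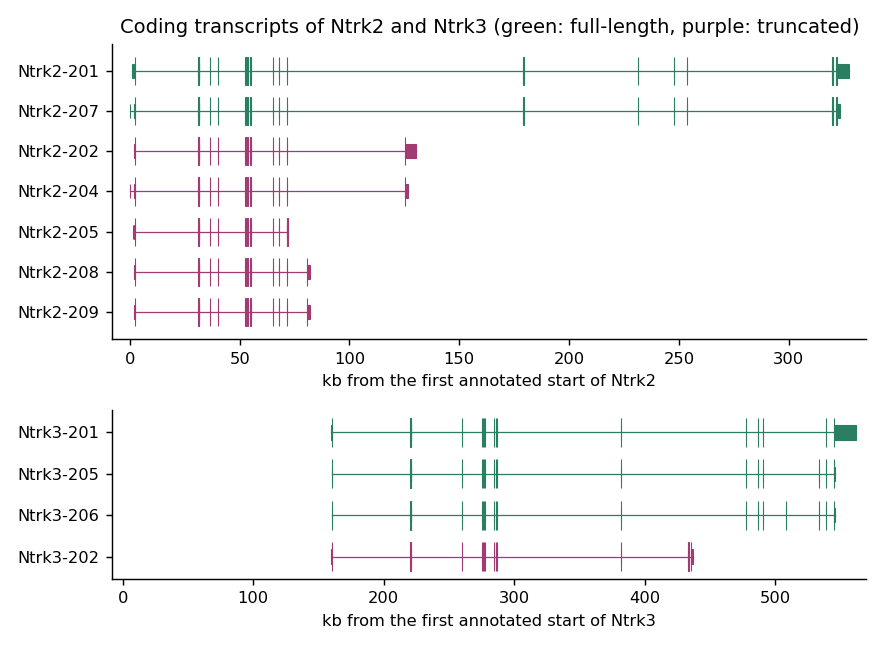
Coding transcripts of Ntrk2 and Ntrk3 drawn to scale in kb from the first annotated start of each gene, with coding exons as tall boxes, untranslated exons as low boxes, full-length forms in green and truncated forms in purple. Truncated Ntrk2 forms have their stop codons at 125 kb or before and full-length forms at 322 kb, and Ntrk3 coding forms start 160 kb in because the first annotated start belongs to a transcript outside both classes.

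TrkC leaned the other way on the TPM scale, with full-length RNA above truncated RNA in both libraries. Full-length Ntrk3 (Ntrk3-201, Ntrk3-205 and Ntrk3-206) was at 38.59 and 30.35 TPM and truncated Ntrk3-202, of 612 codons, at 29.66 and 25.66. Truncated RNA was thus 0.769 and 0.845 times full-length RNA. Ntrk3-201 alone, at 21.51 and 16.60 TPM, was below Ntrk3-202 in both libraries and both quantifications. The lead of full-length RNA on TPM therefore came with Ntrk3-205 and Ntrk3-206. The full-length share was 55.4 ± 1.67% of coding TPM (SD, n = 2), above the 41.98 ± 1.397% of Ntrk2 without overlap between libraries. In the second quantification the full-length share of Ntrk3 was 55.3% and 52.7%. By counts it was 80.2% and 78.4%, since Ntrk3-201 is 19703 bases long against 3977 for Ntrk3-202.

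Among full-length Ntrk3, the form without insert, Ntrk3-201, was at 21.51 and 16.60 TPM. Ntrk3-205, with the 14-codon insert, was at 11.88 and 11.36 TPM, and Ntrk3-206, with both inserts, at 5.20 and 2.39. Inserts within the kinase, which are known to lower TrkC signalling, were thus in 44.8 ± 0.739% of full-length TPM (SD, n = 2). The second quantification put them in 40.8% and 40.4%. By counts they were in only 9.56% and 9.88%: Ntrk3-205 and Ntrk3-206 are annotated with 2678 and 2774 bases, little more than their coding sequence of 2517 and 2592 bases, so the long end of Ntrk3-201 yields no counts for them. How much of that long end belongs to RNAs with the inserts was not tested. The TPM shares of inserts and the full-length lead on TPM rest on the annotated ends.

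A further 21.2 ± 2.88% of Ntrk3 TPM (SD, n = 2) went to the 16 transcripts outside both classes, which are short, non-coding or incomplete. Most of it was Ntrk3-220, a processed transcript of 435 bases, at 14.38 and 9.82 TPM from only 116 and 99.2 expected counts. The second quantification gave Ntrk3-220 0 and 1.95 TPM and gave 14.4 and 14.8 TPM to Ntrk3-214, an incomplete coding transcript of 426 bases that had 0 counts in the RSEM-format tables. The effective length of Ntrk3-220 in replicate 1, over which counts are divided, was 336 bases in the one and 125 in the other. With all transcripts in the denominator, the full-length share of Ntrk3 was 43.6 ± 0.285% (SD, n = 2), beside 41.5 ± 1.19% for Ntrk2. In the second quantification this share was 45.2% and 39.9% for Ntrk3, beside 43.8% and 44.5% for Ntrk2. The libraries of the genes overlapped there, and the mean of Ntrk3 was the lower.

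**Figure D4:**
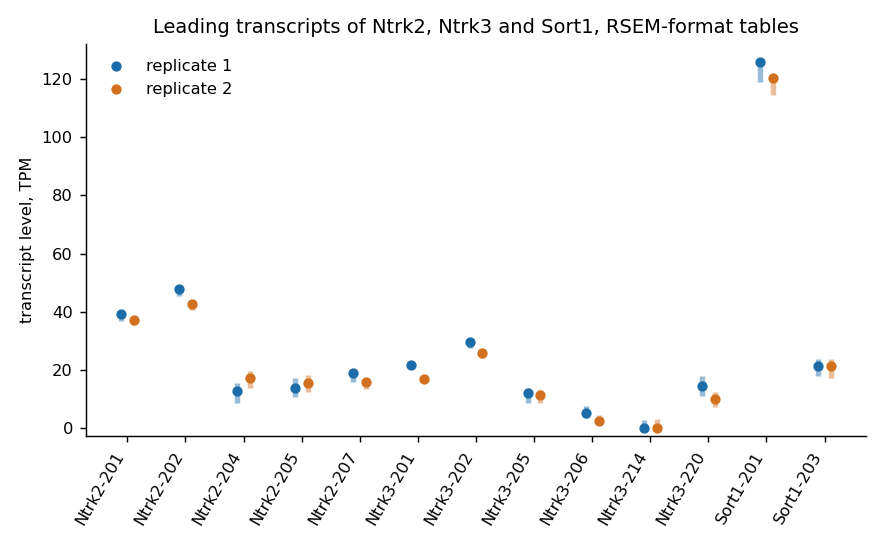
TPM in each library of the leading Ntrk2, Ntrk3 and Sort1 transcripts in the RSEM-format tables; points are the deposited TPM and bars the deposited credibility intervals, which centre on another estimate, so that a point can lie at or past the end of its bar. Ntrk2-202 and Ntrk3-202 lead their genes in both libraries, and Sort1-201 (125.92 and 120.41 TPM) stands far above Sort1-203 (21.29 and 21.20).

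Ngfr has 1 annotated transcript, of 427 codons, and so no choice of form. Its deposited interval was 0.230 to 0.481 TPM in replicate 1 and 0.408 to 0.689 in replicate 2, and these overlap.

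Sort1 was mostly of the form without the added exon. Sort1-201, of 825 codons, was at 125.92 and 120.41 TPM, and Sort1-203, of 858 codons with the exon shown above, at 21.29 and 21.20. The added exon, known to be held back by the RNA-binding protein Tardbp, was thus in 14.7 ± 0.359% of coding Sort1 TPM (SD, n = 2). The second quantification put it in 27.8% and 20.9%, higher in both libraries and farther apart. Sort1-202, a transcript that keeps an intron and overlaps the added exon, was at 3.32 and 2.21 TPM.

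**Figure D5:**
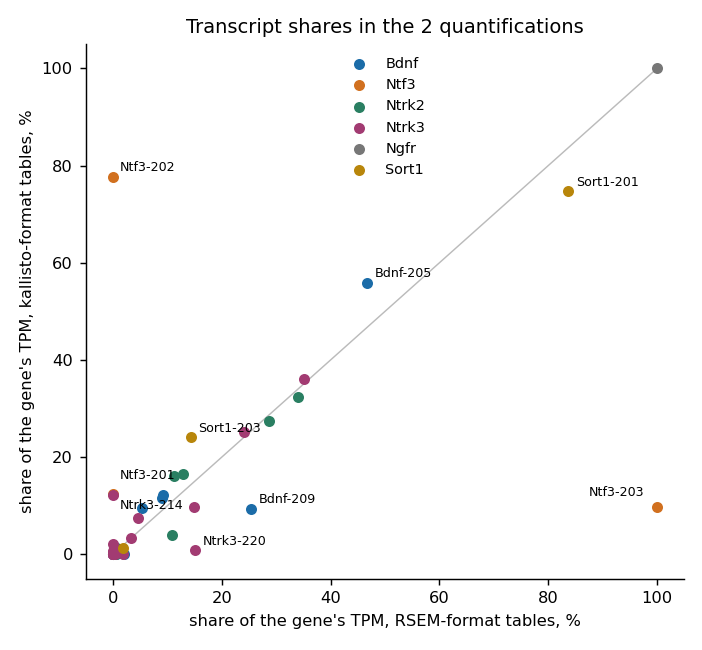
Share of each transcript in its gene's TPM, as the mean of 2 libraries, in the RSEM-format tables (x axis, %) against the kallisto-format tables (y axis, %), with the line of equal shares. Ntf3-202 and Ntf3-203 lie farthest from the line, and Bdnf-209 (25.4% against 9.40%) and Ntrk3-220 (15.2% against 0.866%) lie below it.

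Between the libraries, 0 of the 5 members with at least 200 counts were 2-fold apart, where 0.825% of 12962 such genes were (0.100% higher and 0.725% lower in replicate 2). The log2 ratio of replicate 2 to replicate 1 was −0.14 for Bdnf, 0.19 for Ntf3, −0.08 for Ntrk2 and −0.07 for Sort1, around a median of −0.07 over all these genes. Ntrk3 was at −0.36 (−0.26 with TMM-scaled counts and −0.14 in the second quantification), so replicate 2 had 0.779 of the replicate 1 level in TPM. The 95% Clopper-Pearson bounds were 0.761 and 0.798. They cover counting error of the gene's total counts only, and not the assignment of counts to transcripts of unlike length. Sort1 was 0.024 with TMM-scaled counts, so its sign turned with the scaling. Ngfr, under 200 counts, was 1.57 times as high in replicate 2, with bounds of 0.980 and 2.57.

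At the transcript level, 4 of the 19 member transcripts with at least 200 counts had deposited intervals that did not overlap between the libraries, where 15.1% of 23300 such transcripts did not (12.5% lower and 2.62% higher in replicate 2). They were Ntrk2-202, Ntrk3-201, Ntrk3-202 and Ntrk3-204, all lower in replicate 2. Ntrk3-204, which keeps an intron, was at 3.59 and 1.74 TPM. The lower Ntrk3 level in replicate 2 was seen in full-length Ntrk3-201 and in truncated Ntrk3-202, while the intervals of Ntrk3-205 overlapped. Ntrk3-206 (5.20 and 2.39 TPM) and Ntrk3-220 (14.38 and 9.82 TPM) were lower in replicate 2 as well, with overlapping intervals. The second quantification gave Ntrk3-220 0 and 1.95 TPM instead. Some markers of cell types and regions differed too, in a background where 64.9% of all 12962 genes were lower in replicate 2. The 4 thalamus and striatum markers summed to 28.0 and 19.6 TPM, with none at 0, but the thalamus markers were lower and the striatum markers higher in replicate 2. In the second quantification not all striatum markers were higher. All 4 excitatory neuron markers and all 3 endothelium markers were lower in the RSEM-format tables, but not all of them in the second quantification. The 3 choroid plexus markers summed to 26.9 and 59.2 TPM, with Folr1 at 0 in replicate 1; nearly all of that difference was 1 gene, and of the 2 markers with at least 200 counts 1 was higher and 1 lower. Their part in the Ntrk3 and Ntf3 ratios was not tested.

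Ntf5, a further ligand of TrkB, was at 0.04 and 0.09 TPM, far below Bdnf and Ntf3 in both libraries. Of the sortilin relatives, Sorl1 was at 83.77 and 76.09 TPM, Sorcs2, a partner of p75, at 21.38 and 21.30, and Sorcs3 at 14.18 and 13.18. Sort1 was above each of these.

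Around the 6 genes, 121 genes of the pathway in 6 lists were looked up, and 115 of them were at 1 TPM or more in both libraries. None of the 114 with at least 200 counts was 2-fold apart, against the 0.825% of all genes. Among enzymes that process the precursors, 9 of 13 passed that count minimum. Cpe, which trims peptides and sorts Bdnf to the regulated pathway, was at 1286 and 1327 TPM. Serpini1, an inhibitor of tissue plasminogen activator, was at 63.63 and 75.28 TPM and the convertase Pcsk2 at 68.28 and 64.10. Furin, the common convertase, was lower at 20.42 and 16.09, and Mmp3 and Mmp7 had no counts.

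All 45 Trk adaptor and signalling genes reached 1 TPM, with a median of 31.1 TPM. Kidins220, a scaffold that binds Trk receptors, was at 140.18 and 124.00 TPM, and Map2k1, a kinase of the Ras cascade, at 129.52 and 134.65. These levels were of the order of Ntrk2 itself. Of the 45, 29 were lower and 16 higher in replicate 2, with a median log2 ratio of −0.10, beside 64.9% lower and −0.07 over all genes.

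All 24 p75 partners and effectors were present at 1 TPM or more, with a median of 35.1 TPM, although Ngfr itself was under 1 TPM. Maged1, an adaptor that binds p75, was at 206.89 and 221.43 TPM, Mapk10, a JNK kinase, at 181.12 and 171.66, and Arhgdia, an inhibitor of small GTPases, at 130.77 and 131.63. Many of these proteins also serve other receptors. In this list 15 genes were lower and 9 higher in replicate 2, beside 64.9% lower over all genes.

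Genes that move Bdnf and Trk vesicles had a median of 54.4 TPM over 15 genes. The dynein light chain Dynll1 was at 341.12 and 354.71 TPM, the vesicle protein Rab3a at 333.06 and 342.43, and the kinesin Kif5a at 299.92 and 299.09. Here 6 genes were lower and 9 higher in replicate 2, with a median log2 ratio of 0.01, beside 64.9% lower and −0.07 over all genes. Among 17 Trk modulators the median was 51.5 TPM, and the phosphatase receptor Ptprs led at 312.46 and 267.15 TPM. The ubiquitin ligase Nedd4 was at 123.01 and 123.58 and the endocytic receptor Lrp1 at 130.99 and 105.05. Of the 16 modulators with at least 200 counts, 13 were lower and 3 higher in replicate 2, beside the same 64.9% lower over all genes.

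Library depth was 34919989 and 41206890 expected counts. Genes on the opposite strand within the 6 genes were low: the highest, Gm9885 within Ntrk3, was at 2.31 and 2.29 TPM. The same-strand gene C630044B11Rik within Ntrk2 was at 1.71 and 0.90. Reads were assigned to mm10 without separating the C57BL/6 and CAST alleles, and loss of CAST reads at any of the 6 genes was not examined.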

How the data were processed

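Total RNA-seq of 2 hippocampus libraries was read from the authors' tables (build mm10 per the labels, GENCODE M21 annotation per the deposited notes; the aligner is not given in the sources used here). The authors deposited, in RSEM format, expected counts and TPM per gene and transcript, each transcript's percent of its gene's TPM, and lower and upper credibility bounds of TPM, used here as a signal; the level of those intervals is not given. They also deposited estimated counts and TPM in kallisto format, the second quantification.

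Members and lists were chosen with earlier results of these data known. Transcripts with at least 5% of a gene in either quantification, the 3 highest genes of each list and the close relatives of the members were named, by rule, except a few genes that are not reported here; Furin, Mmp3, Mmp7, the marker genes Chat and Folr1, the overlapping genes, and the transcripts Bdnf-204, Ntrk2-208, Ntrk2-209, Ntrk3-204 and Sort1-202 were named after their values were seen. A Trk transcript was called full-length if its coding sequence ends at the stop codon of the longest one, and truncated if it ends at an earlier stop; incomplete or non-coding transcripts were left apart. Means and SDs are over n = 2 libraries. Ratios of libraries were limited to genes whose expected counts reached 200 in sum, except that of Ngfr, which is given as under this minimum. The ratios had a floor of 3 counts and exact Clopper-Pearson 95% intervals. The 2-fold rule was run on simulated gene counts as a check of the code only, without error in the assignment of counts to transcripts. Intervals and floors cover counting error of a gene's total counts only. Coding sequences came from GENCODE M21 transcripts. Scripts ran in Python 3.11.15 (matplotlib 3.10.9, scipy 1.17.1, numpy 2.4.6, pandas 2.3.3). TMM factors came from edgeR 4.0.16 and size factors from DESeq2 1.42.0 in R 4.3.3, as alternatives for scaling only.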

Additional observations from a re-analysis of the deposited data

How the results depend on the processing

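Levels moved most with the table and its denominator, and the order of the 6 genes did not. In the second quantification they were 18.1 TPM for Bdnf, 8.18 for Ntf3, 208 for Ntrk2, 119 for Ntrk3, 0.740 for Ngfr and 221 for Sort1. With TPM rescaled over nuclear protein-coding genes alone they were 29.1, 12.5, 312, 185, 1.06 and 345 TPM in the same order. The full-length share of Ntrk2 was 45.2% in the second quantification and 51.5% by expected counts; that of Ntrk3 was 79.3% by counts, which are not divided by length, and 43.6% with all transcripts in the denominator. In the second quantification the Bdnf share of exon II was 21.2%, of exon IV 9.40%, of exon VI 55.9% and of exon VII 5.01e-06%; the cause was not tested. The log2 ratio of Ntrk2 was −0.017 with TMM and −0.017 with DESeq2 factors and −0.21 by spike-ins. That of Ntrk3 was −0.26, −0.26 and −0.46 in turn, and −0.14 in the second quantification. That of Sort1 was 0.024, 0.024 and −0.17, and −0.014 in the second quantification; over all genes the median was 0.02 with TMM and −0.17 by spike-ins. The pseudocount of 1 moved no member's ratio beyond its counting interval. Genes 2-fold apart were 107, but 1172 from 20 counts, 2379 without a filter, 65 with TMM, 65 with DESeq2 factors and 189 in the second quantification. With 1 library left out the levels ranged from 11.8 to 13.0 TPM for Bdnf, 4.98 to 5.70 for Ntf3, 129 to 137 for Ntrk2, 69.3 to 89.0 for Ntrk3, 0.350 to 0.550 for Ngfr and 144 to 151 for Sort1. The full-length share ranged from 40.99 to 42.96% for Ntrk2 and from 54.2 to 56.5% for Ntrk3. Bdnf shares ranged from 5.84 to 12.6% for exon I, 12.2 to 17.4% for II, 24.1 to 26.8% for IV, 45.3 to 48.3% for VI, 1.77 to 2.37% for VII and 0.677 to 2.53% for VIII. At this depth the minor Bdnf exons, Ntf3 and Ngfr rest on few counts. No paired analysis was possible because there is 1 group.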
